A study of Danio rerio with 6 samples.

Results

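The genes described here encode cytochrome P450 monooxygenases, cytosolic sulfotransferases, glutathione transferases and UDP-glycosyltransferases of the zebrafish, taken as every gene whose name in the deposited files begins with cyp, sult or ugt followed by a digit, or with gst. The rule found 144 of the 31953 genes in the files: 83 cyp, 30 ugt, 19 sult and 12 gst genes. Of these, 131 had at least 1 read in the 6 libraries, 69 reached the minimum for testing and 62 had reads but stayed below that minimum. The remaining 13 had no read in any library, among them cyp21a2, a hydroxylase of corticosteroid synthesis, and cyp7a1a, a cholesterol hydroxylase of bile acid synthesis.

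Cytochrome P450s are haem enzymes that add oxygen to lipophilic molecules. Members of the CYP1, CYP2, CYP3 and CYP4 families act on foreign compounds, fatty acids and eicosanoids, whereas others each serve a step in the turnover of sterols, steroid hormones, vitamin D or retinoic acid. Sulfotransferases, UDP-glycosyltransferases and glutathione transferases then attach a sulfate, a sugar or glutathione, which makes most products more water-soluble. The enveloping layer (EVL) is the flat outer epithelium of the early fish embryo, gives rise to the periderm and is the layer in contact with the surrounding water.

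Cells of 6 hpf (hours post fertilisation) embryos carrying the krt18:krt18-GFP transgene, in which the promoter of the keratin gene krt18 drives a Krt18-GFP fusion, were separated by cell sorting into GFP-positive cells (EVL) and GFP-negative cells (non-EVL), with 3 RNA-seq libraries of each. Both groups came from the same transgenic strain and the same stage, and the labels list no other treatment. The cell suspension was made from about 1500 embryos, and 10000 GFP-positive cells were sorted. How many GFP-negative cells were sorted is not stated in the labels. The labels do not tie the libraries to separate clutches or separate sorts, so the p-values reflect how far these samples vary, and that variation may be technical only. The EVL libraries held 32187658, 38326835 and 34537749 assigned reads (replicates 1, 2 and 3) and the non-EVL libraries 36734889, 38903847 and 46144557. Values below are normalised reads, that is, reads divided by a library size factor.

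The EVL markers followed the sort: 23 of 24 tested EVL and periderm marker genes were higher in EVL cells, and krt18 had 621621, 251055 and 191050.2 normalised reads in EVL against 9937, 12671 and 11532 in non-EVL. Reads of the transgene may count as krt18. The summed EVL markers were 2602671, 1138568 and 794891 in EVL replicates 1, 2 and 3, and from 43743 to 62525 in non-EVL, so the EVL libraries themselves differed in this sum. In whole populations of sorted cells, more cells of a type and more RNA per cell cannot be told apart.

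Of the 69 tested genes, 20 were higher in EVL cells and 0 were lower at an adjusted p under 0.05 (limma), beside 8.80% of all 15971 tested genes called higher and 0.676% called lower. These 20 made up 29.0% of the tested cyp, sult, gst and ugt genes. The median log2 difference, EVL minus non-EVL, was 0.98 over the 69 genes and -0.06 over all tested genes. In 35 of the 69 every EVL library lay above every non-EVL library, a pattern met by 17.4% of all tested genes, and in 2 (cyp2r1 and gstm) every EVL library lay below, met by 13.5%. At an unadjusted p under 0.05, 33 were higher and 2 lower in limma. The share of all genes at that threshold is not given here. Of the same 69, edgeR on the recovered reads called 21 higher and 0 lower, beside 1409 and 54 of all 15971 tested genes. DESeq2 called 27 of the 69 higher and 1 lower. Run on every gene with a read, it also called cyp2k18, cyp3a65 and ugt5a2 higher, which lie below the minimum used here, for 30 in all. Over all those genes, the 31953 of the files less 6090 without a read, DESeq2 called 2102 higher and 214 lower. That set is wider than the 15971 genes tested by limma. The DESeq2 share within those 15971 is not given here, neither for the 69 genes nor for the gene lists below. Scaling by library size alone called 17 of them higher and 1 lower; over all genes the split was then 1236 higher and 1077 lower, against 1405 and 108 here.

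**Figure D1:**
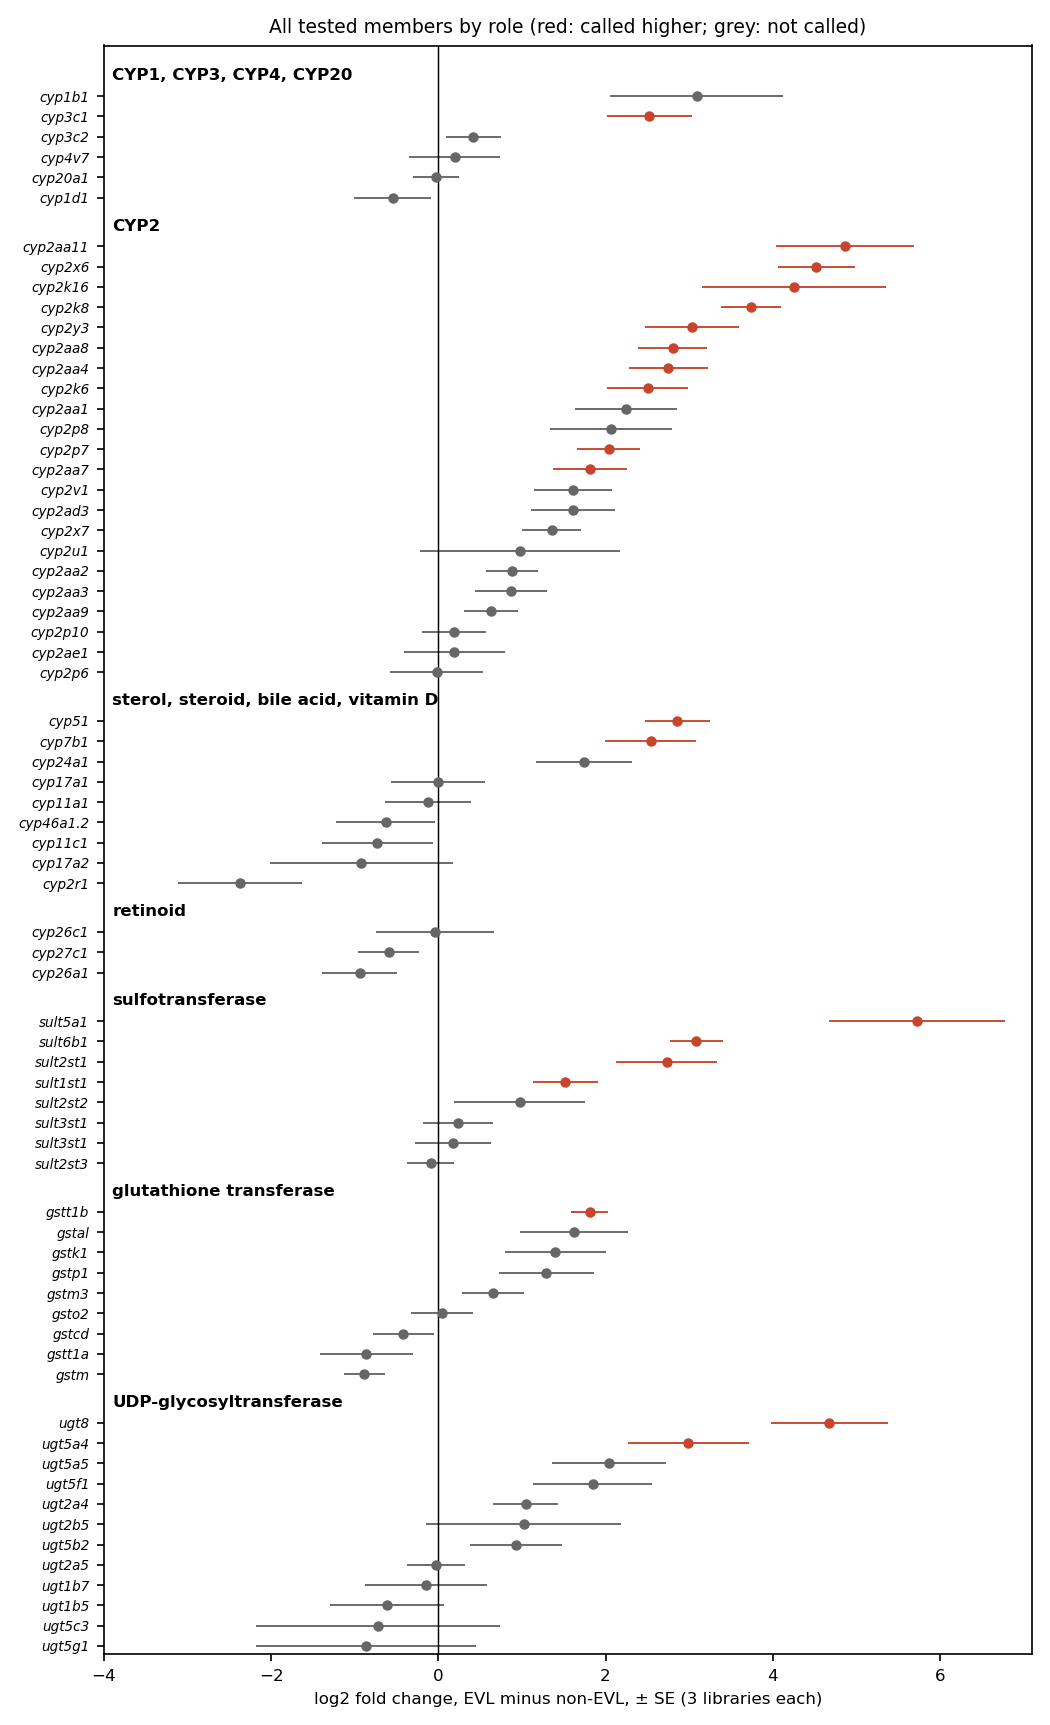
Log2 difference (EVL minus non-EVL) with its standard error for each of the 69 tested genes, grouped by enzyme role, from 3 libraries a group. The 20 red points are the genes called higher; the CYP2 genes, drawn without cyp2r1, sit mostly to the right of 0, and the retinoic acid and steroid hormone genes sit at or left of 0.

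In 3 tested genes (cyp2aa11, sult5a1 and cyp1b1) the minimum was reached through the EVL libraries alone, and in 1 through the non-EVL libraries alone (cyp2r1). A difference in that direction, and the lack of overlap counted above, were built into their selection. Over all tested genes this held for 375 through EVL alone and 47 through non-EVL alone. Of the other called genes, cyp2k6, cyp2k16 and ugt8 had some non-EVL libraries under 10 normalised reads. They passed only with the EVL libraries, all of which reached that value, so selection favoured that direction there too. The same held for uncalled genes such as cyp2aa1, cyp2p8 and gstk1, named after their values were seen. These also count among the genes without overlap and in the medians. By family, 13 of 40 tested cyp genes, 4 of 8 sult, 2 of 12 ugt and 1 of 9 gst genes were higher. Over all tested genes 8.80% were called higher, and the gst count was near that share. Smaller groups below, such as CYP1 and steroid hormone synthesis, hold too few tested genes for their counts to be set against it. Of the genes below the minimum, those with the highest mean were cyp2k18, ugt5a2, sult1st3 and gstz1 in their families (36, 14, 9 and 3 genes with reads below it).

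The CYP2 family, the largest P450 family and in fish made up mainly of enzymes whose natural substrates are not known, held 10 of the 20 called genes. Of its 23 tested genes 10 were higher, beside 8.80% of all tested genes. Of these 10, cyp2aa11, cyp2k6 and cyp2k16 passed the minimum only with the EVL libraries. The median log2 difference was 1.81, against -0.06 over all tested genes, and 21 of the 23 differences were above 0. The 2 below 0 were those of cyp2p6 and of cyp2r1, the vitamin D hydroxylase described with its pathway below; without cyp2r1 the median was 1.93 over 22 genes. Gene cyp2x6 had 9255, 4513 and 2324 normalised reads in EVL replicates 1, 2 and 3 and 158, 270.1 and 185 in non-EVL. Every EVL library exceeded every non-EVL library by a wide margin, and the log2 difference was 4.52 ± 0.46 (SE, 22.9-fold; limma adjusted p = 0.000801). Gene cyp2k8 had 3202, 2093 and 1282 in EVL and 195, 116 and 158 in non-EVL, again without overlap (3.74 ± 0.36, 13.3-fold, limma adjusted p = 0.000674).

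For cyp2aa8 the values were 10771, 8312 and 4830.4 in EVL and 593, 1626 and 1313 in non-EVL. EVL replicate 3, the lowest of its group, still exceeded the highest non-EVL library, and the log2 difference was 2.80 ± 0.41 (6.99-fold, limma adjusted p = 0.00392). Its neighbour cyp2aa4 had 814, 451 and 245 in EVL against 46.0, 86.4 and 71.2 (2.75 ± 0.47, limma adjusted p = 0.00817). Gene cyp2y3 had 5183, 1582 and 1066 in EVL and 169, 371 and 251 in non-EVL; the groups were apart, with EVL replicate 1 far above the other EVL libraries (3.03 ± 0.56, 8.18-fold, limma adjusted p = 0.0116; 5.16-fold without that library). Gene cyp2p7, of a fish subfamily related to the mammalian CYP2J fatty acid epoxygenases, had 2015, 958 and 714 in EVL and 324, 243 and 251 in non-EVL (2.04 ± 0.38, limma adjusted p = 0.0115).

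The other called CYP2 genes had fewer reads. In cyp2aa11 the EVL values were 205, 41.0 and 40.6 and the non-EVL values 3.48, 0.919 and 0.705, a log2 difference of 4.86 ± 0.82 (29.1-fold, limma adjusted p = 0.00742; 17.1-fold without EVL replicate 1). For cyp2k6 they were 85.6, 58.7 and 49.6 against 6.95, 12.9 and 12.0 (2.50 ± 0.49, limma adjusted p = 0.0140). The size of the cyp2aa11 difference depends on the 1 added before taking logs, since its non-EVL values were near 0. Its log2 difference was 5.22 with 0.5 added and 2.82 with 10 added. In cyp2aa11 the minimum for testing fixed that all EVL libraries lay above all non-EVL libraries. The groups were also without overlap in cyp2k6 and in the next pair. Gene cyp2aa7 had 184, 123 and 84.6 in EVL and 40.8, 42.3 and 24.0 in non-EVL (1.81 ± 0.44, limma adjusted p = 0.0372). Gene cyp2k16 had 1062, 67.5 and 72.2 in EVL and 21.7, 6.43 and 3.52 in non-EVL (4.26 ± 1.1, 19.1-fold, limma adjusted p = 0.0491), so that EVL replicate 1 stood apart from the other EVL libraries. The calls of cyp2k6, cyp2aa7 and cyp2k16 were lost when single libraries were left out, with limma adjusted p rising to 0.0572, 0.129 and 0.163. For cyp2k16 the fold was 7.75 without EVL replicate 1, 30.5 without EVL replicate 2, 29.5 without EVL replicate 3 and 30.1 without non-EVL replicate 1. The call was also lost with library size alone, with 0.5 or 10 added in place of 1, and with a minimum of 50. DESeq2 gave this gene no adjusted p. With library size on the read scale, where the added 1 stands for about 1 read, the call was kept (limma adjusted p = 0.0405). At a minimum of 50 cyp2aa11 and cyp2k6 were not tested.

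**Figure D2:**
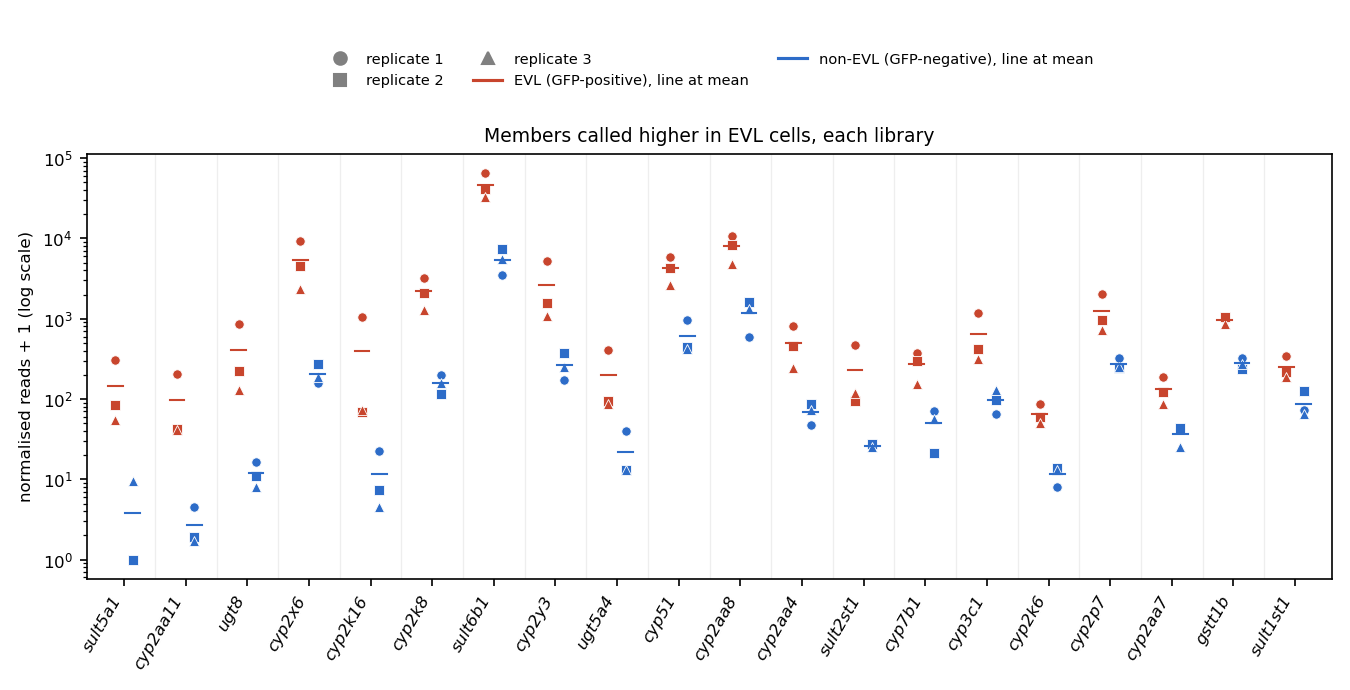
Normalised reads plus 1 on a log axis for the 20 genes called higher in EVL cells, 1 point a library with a line at each group mean. No gene shows overlap between the 3 EVL and the 3 non-EVL libraries, which the minimum for testing fixed in cyp2aa11 and sult5a1. In the others the call itself selects for separated groups, so the lack of overlap is not a separate result. EVL replicate 1 is the highest library in 19 of the 20.

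Many of these genes lie side by side in the genome. By gene order in the RefSeq annotation of GRCz12tu, 130 of the 144 genes could be placed, and 65 of them fell into 12 runs of at least 3 genes with no more than 2 other protein-coding genes between neighbours. In the runs 12 of 29 tested genes were higher in EVL and outside them 8 of 36, beside 8.80% of all tested genes. The median log2 difference was 1.61 in the runs and 0.81 outside them. Most tested and most called genes in the runs were CYP2 genes, so this contrast is not separate from the CYP2 result above. The run of 11 genes that holds the cyp2aa subfamily had 9 tested genes, all with a difference above 0, and 4 were called (cyp2aa4, cyp2aa7, cyp2aa8 and cyp2aa11). Among the 5 that were not, cyp2aa1 had 105, 56.5 and 29.3 in EVL and 7.82, 18.4 and 9.16 in non-EVL (2.25 ± 0.61, limma adjusted p = 0.0590), while cyp2aa3 and cyp2aa9 had overlapping groups. These 3 genes were chosen after their values were seen. Of the run, cyp2aa1 and the called cyp2aa11 passed the minimum only with the EVL libraries.

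In the run of 8 cyp2k genes, 3 reached the minimum (cyp2k6, cyp2k8 and cyp2k16) and all 3 were called. Since cyp2k6 and cyp2k16 passed the minimum only with the EVL libraries, that count was partly built into the selection. Gene cyp2k18, below the minimum, had 39.5, 17.7 and 6.77 in EVL and 2.61, 3.67 and 0 in non-EVL. The run of cyp2ad, cyp2v and cyp2p genes had 6 tested genes, of which cyp2p7 was called, and a median log2 difference of 1.61. Its cyp2p6 and cyp2p10 had overlapping groups, with log2 differences of -0.02 and 0.19 (limma adjusted p = 0.989 and 0.813; named after their values were seen). Neighbours of the same subfamily may be close copies in sequence, which was not examined here. Reads were 50 nt long and how reads with several matches were counted is not stated, so the split of reads between such neighbours is uncertain. The symbol table given for the identifiers exchanges the names cyp2aa4 and cyp2aa8, and names here follow the files.

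**Figure D3:**
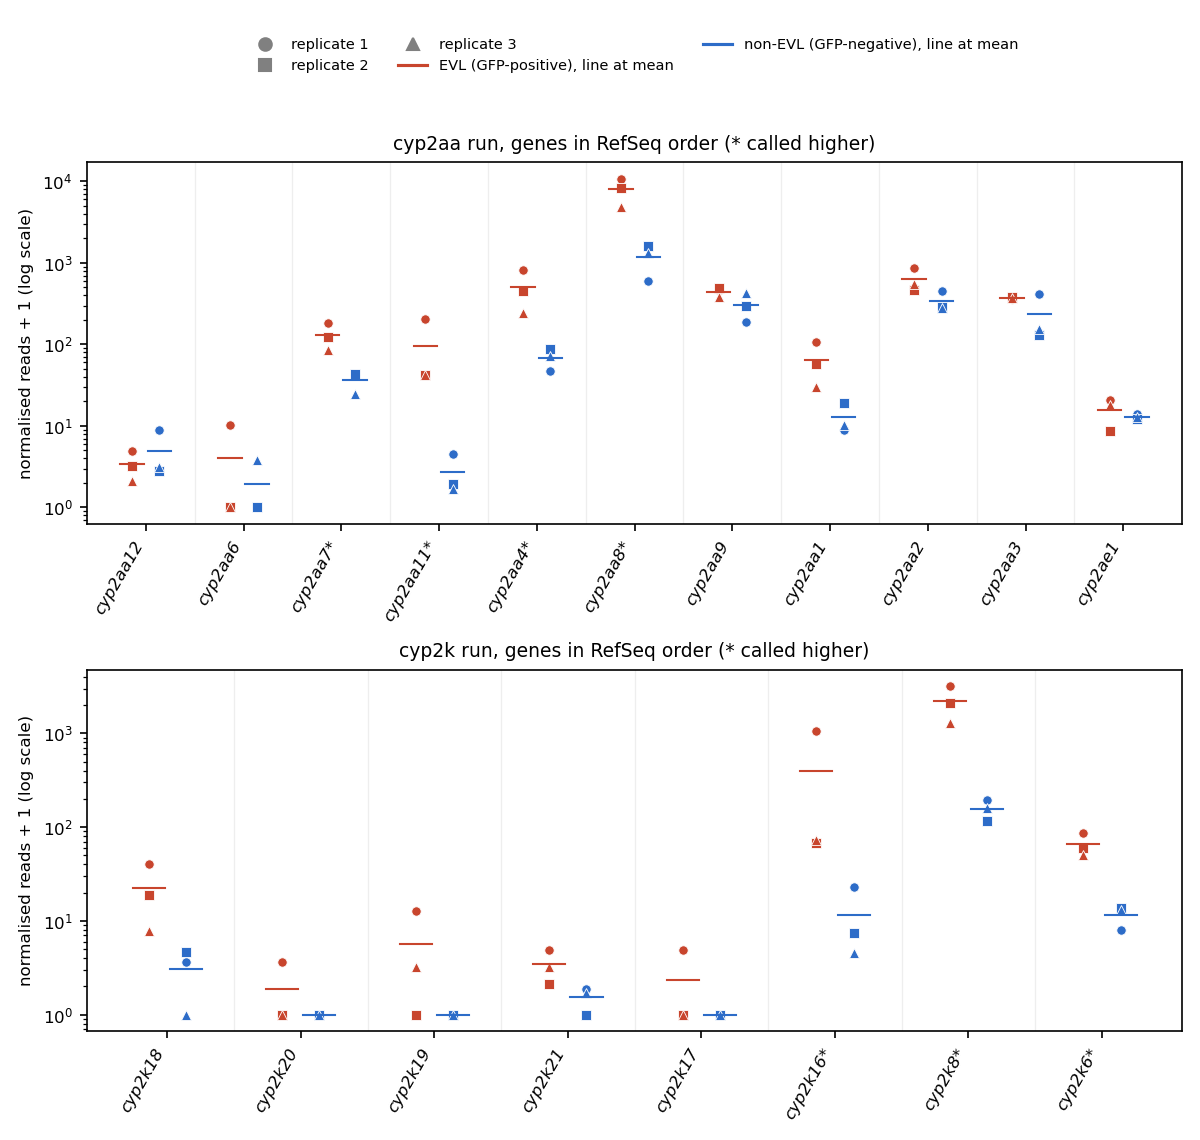
Normalised reads plus 1 on a log axis for each gene of the cyp2aa run (top) and the cyp2k run (bottom), in their order along the chromosome, 1 point a library and a line at each group mean. The called genes, marked with an asterisk, stand beside neighbours such as cyp2aa3 and cyp2aa9 in which the groups overlap.

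Beyond CYP2, 1 of 2 tested CYP3 genes was higher. Gene cyp3c1 had 1167, 423 and 316 normalised reads in EVL and 64.3, 96.5 and 129 in non-EVL, with no overlap (2.52 ± 0.51, 5.75-fold, limma adjusted p = 0.0172). Without non-EVL replicate 2 its limma adjusted p was 0.0587, the highest of the 6 leave-one-out values, which began at 0.0144. The single tested CYP4 gene was not called.

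CYP1 enzymes are classical targets of the aryl hydrocarbon receptor, and limma and edgeR called 0 of the 2 tested. Gene cyp1b1 had 22.4, 23.3 and 91.4 in EVL and 0, 7.35 and 9.16 in non-EVL (3.09 ± 1.04, limma adjusted p = 0.118). Its lack of overlap was fixed by the minimum for testing, and EVL replicate 3 lay well above the other EVL libraries. The gene was higher at an unadjusted p under 0.05 and in DESeq2. For cyp1d1 the groups overlapped, at 32.9, 101 and 64.3 in EVL and 77.3, 87.3 and 101 in non-EVL (-0.55 ± 0.46, limma adjusted p = 0.534). Gene cyp1a, the usual marker of receptor activation, stayed below the minimum with 56 reads in all; its values were 1.32, 0 and 1.13 in EVL and 0, 9.19 and 31.0 in non-EVL. The genes cyp1c1 and cyp1c2 had 2 reads and 1 read.

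Of the tested sterol enzyme genes, cyp51 and cyp7b1 were higher in EVL, whereas cyp46a1.2, named after its values were seen, was not called. That gene had 11.9, 13.3 and 9.02 in EVL and 24.3, 10.1 and 23.3 in non-EVL, with overlapping groups (-0.63 ± 0.59, limma adjusted p = 0.582). Gene cyp51, the lanosterol demethylase of cholesterol synthesis, had 5893, 4245 and 2658 in EVL and 957, 439 and 413 in non-EVL. All 3 EVL libraries were higher, by a log2 difference of 2.86 ± 0.39 (7.25-fold, limma adjusted p = 0.00266). Gene cyp7b1, an oxysterol hydroxylase, had 371, 292 and 155 in EVL and 70.4, 20.2 and 55.7 in non-EVL (2.54 ± 0.54, limma adjusted p = 0.0223), a call lost without EVL replicate 1, EVL replicate 2 or non-EVL replicate 3 (limma adjusted p up to 0.0821). The genes of the cyp27a group, which hydroxylate the cholesterol side chain, were at or near 0: cyp27a7 had 12 reads, cyp27a1.4 had 7 and cyp27a1.2 had none.

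Of the 4 tested P450s of steroid hormone synthesis 0 were called by limma, edgeR or DESeq2, and 0 at an unadjusted p under 0.05 in limma; their median log2 difference was -0.42. Gene cyp11a1, the cholesterol side-chain cleavage enzyme that starts the pathway, had 103, 153 and 162 in EVL and 65.2, 212 and 237 in non-EVL. Its groups overlapped, with non-EVL replicate 1 the lowest library (-0.12 ± 0.51, limma adjusted p = 0.916). Gene cyp17a1, the hydroxylase and lyase that leads to androgens, had 89.6, 101 and 81.2 against 35.6, 129.5 and 159 (-0.00 ± 0.56, limma adjusted p = 0.998). The log2 differences of cyp17a2 and cyp11c1 were -0.92 ± 1.09 and -0.73 ± 0.66, on 149 and 73 reads (limma adjusted p = 0.671 and 0.565). The aromatases cyp19a1a and cyp19a1b had 3 and 23 reads and cyp11a2 had 1.

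The vitamin D enzymes differed in direction, and limma called neither, although both passed an unadjusted p under 0.05 and DESeq2 called cyp24a1 higher. Gene cyp24a1, which inactivates vitamin D, had 230.5, 1057 and 483 in EVL and 258, 105 and 114 in non-EVL (1.74 ± 0.58, limma adjusted p = 0.113). EVL replicate 1 lay below non-EVL replicate 1; over the 6 leave-one-out fits the limma adjusted p ran from 0.0374, without EVL replicate 1, to 0.311. Gene cyp2r1, which makes the circulating form of vitamin D, had 9.22, 2.21 and 2.26 in EVL and 37.4, 17.5 and 19.7 in non-EVL (-2.37 ± 0.74, limma adjusted p = 0.0945). All EVL libraries lay below, which the minimum for testing had fixed.

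Enzymes of the Cyp26 family degrade retinoic acid, and in zebrafish gastrulae cyp26a1 is known to shape the retinoic acid gradient. Here cyp26a1 had 2034, 1039 and 3259 normalised reads in EVL and 4478, 2175 and 5009.9 in non-EVL. The groups overlapped, since EVL replicate 3 exceeded non-EVL replicate 2, and the log2 difference was -0.94 ± 0.45 (limma adjusted p = 0.261). Between libraries of the same replicate number EVL was the lower each time. Whether those numbers pair the libraries is not settled. Gene cyp26c1 had 35.6, 23.3 and 31.6 in EVL and 75.6, 10.1 and 35.9 in non-EVL (-0.04 ± 0.71, limma adjusted p = 0.982). A second gene of the same name had 5 reads, and cyp26b1 had 13.

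Gene cyp27c1 encodes the enzyme that converts vitamin A1 into A2 in zebrafish, and had 1948, 5435 and 4699.6 in EVL and 5981, 6317 and 4502 in non-EVL. EVL replicate 1 was the lowest library and the groups overlapped (-0.59 ± 0.37, limma adjusted p = 0.387). Of 26 other tested genes of retinoic acid metabolism and signalling, 2 were higher and 0 lower in limma, edgeR and DESeq2. That is near the 8.80% of all tested genes called higher in limma. The median log2 difference was 0.25, and 5 were higher and 3 lower at an unadjusted p under 0.05 in limma. For all genes the share at that unadjusted threshold is not given here. Gene rbp7a, a cellular retinol-binding protein, had 83.0, 45.4 and 24.8 in EVL and 1.74, 4.59 and 2.82 in non-EVL (3.58 ± 0.67, limma adjusted p = 0.0122). It reached the minimum for testing through the EVL libraries alone, so that direction and its lack of overlap were built into the selection. Gene rdh10b, a retinol dehydrogenase, had 12667, 9811 and 6965 in EVL and 4221, 6119.7 and 4321 in non-EVL. Its EVL libraries lay above the others by a smaller margin (0.98 ± 0.25, 1.98-fold, limma adjusted p = 0.0447), and the call was lost in 5 of 6 leave-one-out fits (limma adjusted p up to 0.156), with upper quartile scaling and with both library size scalings; that of rbp7a was lost in 2. The retinoic acid-binding protein gene crabp2b was not called (-0.28 ± 0.20, limma adjusted p = 0.471), nor was aldh1a2, the main retinoic acid-producing enzyme, named after its value was seen (-0.57 ± 0.23, limma adjusted p = 0.189).

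Sulfotransferases included the gene with the most reads of all 144. Gene sult6b1 had 64305, 41653 and 32421 normalised reads in EVL and 3473, 7283 and 5594 in non-EVL. The groups were far apart, with a log2 difference of 3.09 ± 0.32 (8.50-fold, limma adjusted p = 0.000849). It took from 52.5 to 53.7% of the reads of the 144 genes in EVL libraries and from 16.3 to 30.4% in non-EVL libraries; transcript lengths were not used here, so these are shares of reads and not of transcripts.

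Gene sult5a1 had 302, 83.0 and 54.1 in EVL and 0, 0 and 8.46 in non-EVL, where 2 libraries had no read (5.73 ± 1.05, 52.9-fold, limma adjusted p = 0.0113). With values at 0 the size depends on the added 1, and it was 32.2-fold without EVL replicate 1 and 112-fold without non-EVL replicate 3. Gene sult2st1, which in zebrafish sulfates steroids such as dehydroepiandrosterone, had 469, 94.1 and 117 in EVL and 25.2, 26.6 and 24.0 in non-EVL. EVL replicate 1 was far above the rest, and the non-EVL libraries were nearly equal (2.73 ± 0.60, 6.64-fold, limma adjusted p = 0.0258; 4.04-fold without EVL replicate 1). Gene sult1st1, a phenol sulfotransferase, had 346, 214 and 186 in EVL and 71.2, 124 and 64.8 in non-EVL (1.52 ± 0.39, limma adjusted p = 0.0458). Leaving out single libraries raised the limma adjusted p of sult2st1 to as much as 0.0873 and that of sult1st1 to 0.160; the sult1st1 call was also lost with upper quartile scaling, both library size scalings and no filter. Gene sult2st3 was level between the groups, at 216, 171 and 249 against 264, 191 and 219.9 (-0.09 ± 0.28, limma adjusted p = 0.885).

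Of 12 tested UDP-glycosyltransferase genes, 2 were higher (16.7%), beside 8.80% of all tested genes. Gene ugt8, which in mammals encodes the enzyme that joins galactose to ceramide, had 864, 220.3 and 129 in EVL and 15.6, 10.1 and 7.05 in non-EVL. The groups did not overlap, and EVL replicate 1 stood above the other EVL libraries (4.68 ± 0.70, 25.6-fold, limma adjusted p = 0.00416). The fold was 14.8 without EVL replicate 1 and 38.3 without EVL replicate 3. Gene ugt5a4, of a glucuronosyltransferase family found in fish, had 408, 93.0 and 86.8 in EVL and 39.1, 11.9 and 12.0 in non-EVL (2.99 ± 0.72, 7.95-fold, limma adjusted p = 0.0384). The call was lost in 4 of 6 leave-one-out fits (limma adjusted p up to 0.137) and with library size alone. It was kept with library size on the read scale (limma adjusted p = 0.0390). The fold was 4.81 without EVL replicate 1. Gene ugt2a5 was level, at 103, 121 and 91.4 against 134, 119 and 75.4 (-0.03 ± 0.35, limma adjusted p = 0.978). The genes of the ugt1b run, all of the glucuronosyltransferase group that in mammals conjugates bilirubin and phenols, had few reads, and neither of its 2 tested genes was called.

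Glutathione transferases gave 1 higher of 9 tested genes, near the 8.80% of all tested genes, with a median log2 difference of 0.66. Gene gstt1b, of the theta class, had 992, 1044 and 862 in EVL and 321, 238 and 269 in non-EVL. It was the called gene with the most even EVL libraries and one in which EVL replicate 1 was not the highest library (1.81 ± 0.22, 3.51-fold, limma adjusted p = 0.00142). Gene gstp1, of the pi class, had 1180.1, 379.8 and 456 in EVL and 109, 361 and 349.6 in non-EVL. Those groups did not overlap, but EVL replicate 2 came close to non-EVL replicate 2 (1.29 ± 0.57, limma adjusted p = 0.225). In zebrafish gstp1 is a known Nrf2 target, but the symbol table names this gene gstp1.2 and gives gstp2 the name gstp1.1. Which of them is that target was not settled here. Gene gsto2, of the omega class, was level at 352, 332 and 341 against 182, 487 and 411 (0.04 ± 0.37, limma adjusted p = 0.961). The mu-class gene gstm, named after its values were seen, had 250.3, 186 and 241 in EVL and 419, 374 and 454 in non-EVL, all EVL libraries being lower (-0.88 ± 0.25, limma adjusted p = 0.0646); it was called lower by DESeq2 and under each of 4 other scalings.

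Genes that supply these enzymes were examined as lists. The limma counts of each list at an adjusted p under 0.05 stand beside 8.80% of all tested genes called higher and 0.676% called lower. For every list, the share of all genes at an unadjusted p under 0.05 is not given here. Of 30 tested genes for cofactors, donors and related steps, 4 were higher and 0 lower in limma (median log2 difference 0.16), 6 and 0 at an unadjusted p under 0.05, 4 and 0 in edgeR, and 5 and 0 in DESeq2. Gene alas1, the first enzyme of haem synthesis, had 9373, 10622 and 7528 in EVL and 1227, 1861 and 2239.9 in non-EVL (2.40 ± 0.25, 5.27-fold, limma adjusted p = 0.000801). Gene papss2b makes the sulfate donor used by sulfotransferases and had 5639, 2552 and 2311 in EVL against 651, 187 and 355 in non-EVL (3.19 ± 0.49, 9.14-fold, limma adjusted p = 0.00465). Both genes had all EVL libraries above all non-EVL libraries. Gene nqo1, a quinone reductase, had 31229, 11737 and 9924 in EVL and 344, 702 and 603 in non-EVL (4.87 ± 0.44, 29.2-fold, limma adjusted p = 0.000673), and the nucleotide sugar transporter gene slc35d2 differed by 5.42 ± 0.62 (42.7-fold, limma adjusted p = 0.00122; 27.9-fold without non-EVL replicate 1). The donor of glucuronosyltransferases is made by ugdh, which was level at 2595, 4350.1 and 3695 against 3922, 3864 and 3125 (-0.06 ± 0.22, limma adjusted p = 0.899). The P450 reductase gene por was not matched by name and is not analysed here.

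Among 40 tested genes of glutathione synthesis and use, 3 were higher and 0 lower in limma, and the median log2 difference was -0.04. The count higher was near the share of all tested genes, 8.80%. At an unadjusted p under 0.05 the counts were 7 and 2, in edgeR 4 and 0, and in DESeq2 5 and 1. The 3 were 2 membrane-bound glutathione transferases and a peroxiredoxin. Gene mgst2 had 8690.3, 3604 and 1988 in EVL and 110.3, 224 and 90.9 in non-EVL (4.91 ± 0.54, 30.0-fold, limma adjusted p = 0.00108). The log2 differences of mgst1.2 and prdx5 were 3.89 ± 0.57 and 1.64 ± 0.29 (limma adjusted p = 0.00387 and 0.00848), without overlap in either; the 14.8-fold difference of mgst1.2 was 8.95-fold without EVL replicate 1. The most-read gene not called, zgc:158387, which the symbol table names mgst3b, had a difference of -0.03 ± 0.14 (limma adjusted p = 0.919).

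Steroid synthesis and receptor genes outside the P450s gave 4 higher and 0 lower among 24 tested in limma, with a median log2 difference of 0.31. Over all tested genes 8.80% were called higher and 0.676% lower. At an unadjusted p under 0.05 the counts were 6 and 1, in edgeR 5 and 0, and in DESeq2 5 and 0, which also called esr2a, below the minimum, lower. The 4 were hydroxysteroid dehydrogenases. Gene hsd17b12a, known also as a reductase of fatty acid elongation, had 84988, 50690.0 and 28145 in EVL and 1306, 2749.8 and 2414 in non-EVL (4.59 ± 0.42, 24.1-fold, limma adjusted p = 0.000673). The others were hsd11b1la, hsd3b2 and hsd17b2, with log2 differences of 3.51 ± 0.55, 1.60 ± 0.32 and 1.65 ± 0.38 (limma adjusted p = 0.00518, 0.0172 and 0.0302). The last pair lost the call in 2 and 4 of 6 leave-one-out fits (limma adjusted p up to 0.0693 and 0.114). The hsd17b2 call was also lost with library size alone, but not on the read scale. The 11.4-fold difference of hsd11b1la was 7.23-fold without EVL replicate 1. Gene pgrmc2, a haem-binding membrane protein of the progesterone receptor component group, was not called (-0.60 ± 0.28, limma adjusted p = 0.245). Of 25 tested genes of the AhR, PXR and Nrf2 sensors, limma and edgeR called 0 in either direction (median log2 difference 0.21), and 3 were higher and 1 lower at an unadjusted p under 0.05. DESeq2 called 3 of the 25 higher: nfe2l2a, which encodes Nrf2, keap1a, its inhibitor, and bach1b, all named after the calls were seen. The ahr1a, ahr1b and nr1i2 genes stayed below the minimum, though DESeq2 called nr1i2 higher, and cul3a, the ubiquitin ligase scaffold of Nrf2 turnover, differed by -0.22 ± 0.17 (limma adjusted p = 0.492).

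**Figure D4:**
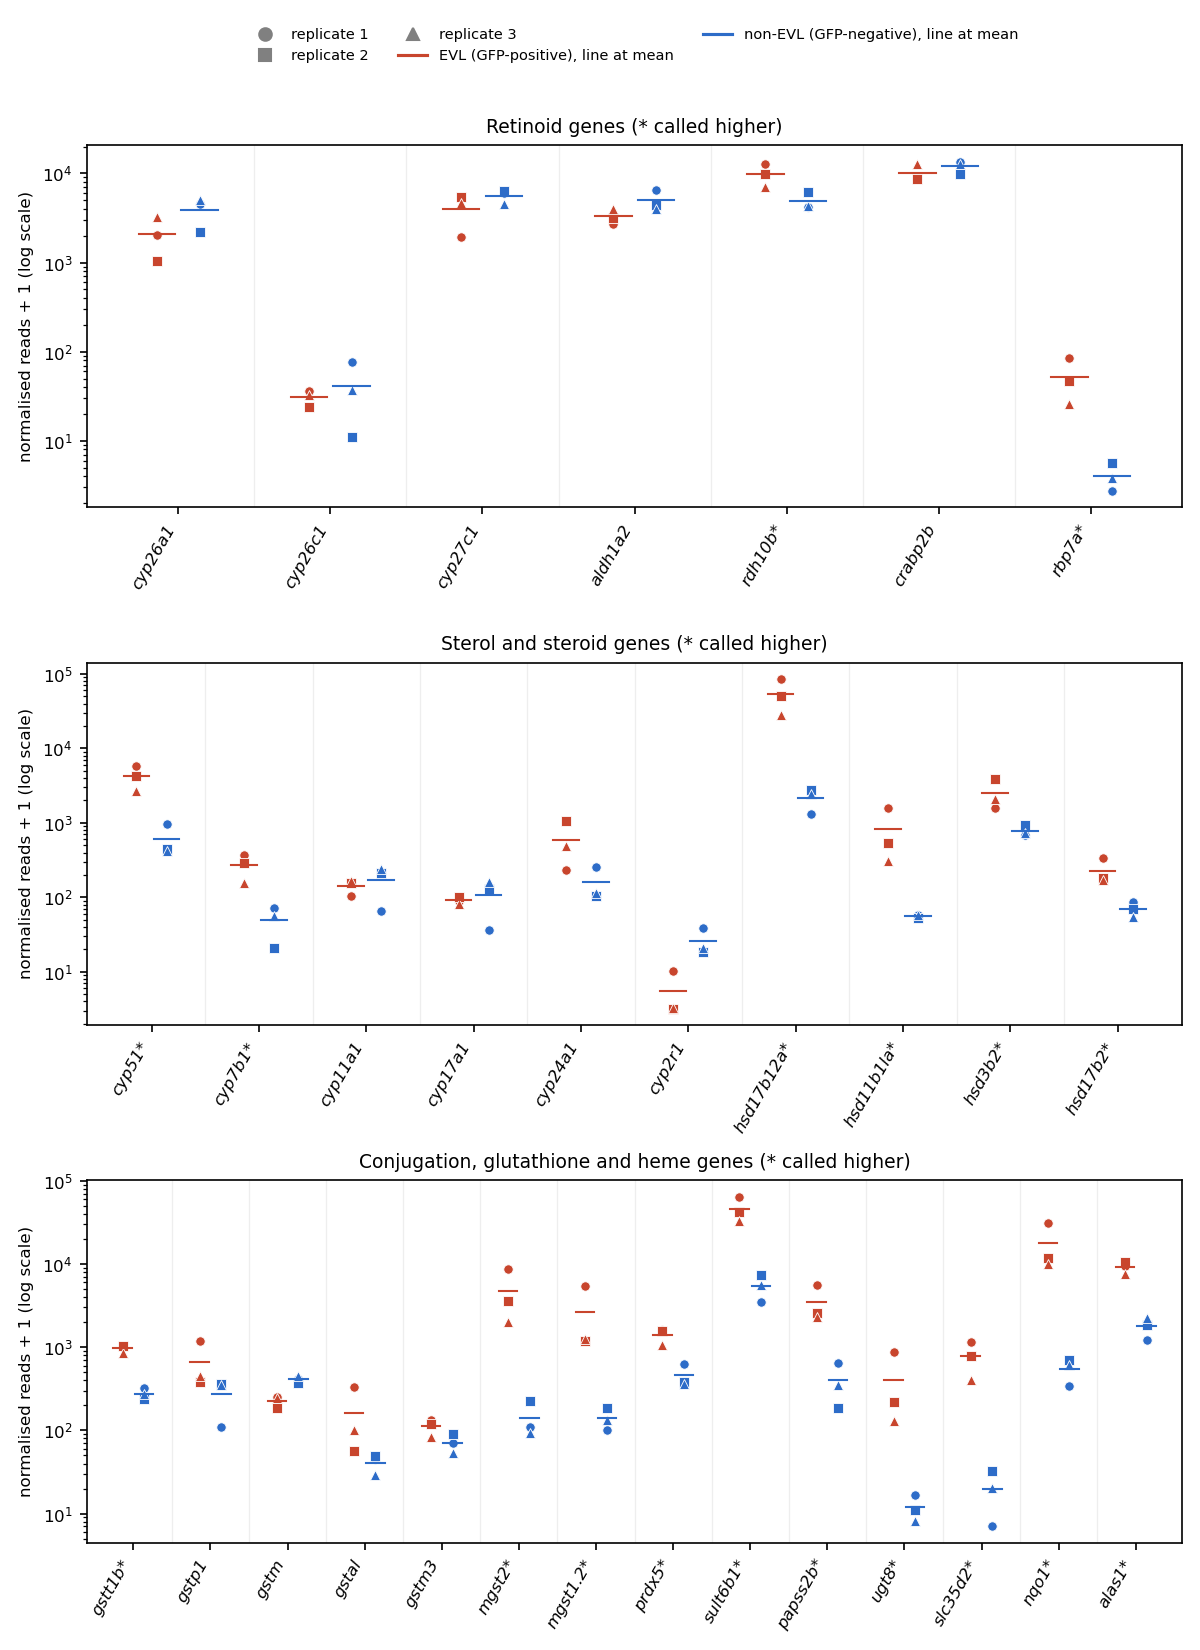
Normalised reads plus 1 on a log axis for retinoid genes (top), sterol and steroid genes (middle) and conjugation, glutathione and haem genes (bottom), 1 point a library and a line at each group mean, with called genes marked by an asterisk. The groups overlap for cyp26a1 and cyp11a1 and lie far apart for hsd17b12a, nqo1 and mgst2; gstal, gstm, gstm3 and aldh1a2 were added to the plot after their values were seen.

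Across the 20 called genes, the EVL libraries were unequal. EVL replicate 1 was the highest of the 3 in 19 of them, beside 85.8% of all genes called higher and 41.6% of all tested genes. Its value was a median 1.93 times that of EVL replicate 2 and 3.07 times that of EVL replicate 3. The same replicate had the highest sum of EVL markers, given above, and the part of that difference in these results was not tested. Without EVL replicate 1, 14 of the 20 were still called and cyp24a1 was added; 12 of the 20 were called in all 6 leave-one-out fits. In the non-EVL libraries the called genes had a median of 12.7% of their EVL mean, from 1.78% in cyp2aa11 to 34.9% in sult1st1, whereas the EVL markers had a median of 2.99%.

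Markers of other cells were compared as well. Dorsal forerunner cell markers were higher in EVL in 5 of 6 tested genes, with sums from 17682 to 27124 in EVL and from 2363 to 4480.3 in non-EVL, and vil1 of that list was at 0 in all libraries. Of 4 tested blood and macrophage markers, lcp1 and lmo2 were higher (sums from 3994 to 9108 against 303 to 611), and the defining genes gata1a and mpeg1.1 were at 0. Hatching gland markers gave 1 of 4 higher, klf17, which is also an EVL marker (sums from 7368 to 11845 against 1584 to 2077). Germ cell markers were lower in 3 of 9 (sums from 2019 to 4785 against 5396 to 8890), and yolk syncytial layer markers in 1 of 9 (sums from 54468 to 70359 against 89111 to 107371). Deep ectoderm markers were lower in 2 of 10, with overlapping sums from 46705 to 115347 in EVL and from 81610.4 to 152965 in non-EVL. Mesoderm and endoderm markers gave 3 higher and 2 lower of 18, again with overlapping sums, from 73607 to 122956 and from 101204 to 105393. Genes listed as markers of non-EVL cells were therefore read in the EVL libraries too. Whether these reads came from such cells or from EVL cells was not tested, nor was the part of such cells in the results on the enzymes. The dorsal forerunner list shares sox17 and sox32 with the mesoderm and endoderm list, so those counts are not independent.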

How the data were processed

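RNA-seq of 6 libraries, 3 of sorted GFP-positive and 3 of GFP-negative cells, was analysed. The authors deposited 1 normalised signal value per gene and library. Per the submitters' processing notes the tools were Trim Galore, STAR 2.6.1d, featureCounts and DESeq2, with build danRer10. The annotation release, strand setting and counting of multiply mapped reads are not given in those notes or the labels. Division by the value of a single read turned 100% of values into whole reads (tolerance 0.01 read), and the factors so obtained equalled recomputed DESeq2 size factors. The most-read gene, AC024175.4, took from 30.1 to 42.7% of reads. SMARTseq2 libraries have no molecular identifiers, so reads are not independent molecules; antisense neighbours cannot be told apart.

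The 15971 genes with 10 or more normalised reads in 3 or more libraries were tested with limma 3.58.1 (R 4.3.3) on log2(value + 1), comparing the groups with no covariate, a variance trend and robust shrinkage; calls needed a Benjamini-Hochberg adjusted p under 0.05. The added 1 understates fold changes of low genes. Limma replaced the count test first planned, because the deposited values were normalised; edgeR 4.0.16 and DESeq2 1.42.0 on recovered reads were alternatives, beside other scalings, minimum values and added constants, leaving out each library, and a replicate term. The genes, pathway lists and marker lists were chosen with earlier results of these data known. Named were all called genes, those of retinoid, steroid, vitamin D, CYP1 and sterol enzymes by a fixed list of names, the 3 most-read of each family, the most-read below the minimum, and of each pathway list up to 4 called genes and the most-read gene not called. Of the 144 identifiers, 137 were in the symbol table; 4 names each belong to 2 genes. A further 14 genes that resemble these enzymes (6 with upper-case names, 8 by the symbol table alone) were left out; 4 of them were tested, 0 were called by limma, edgeR or DESeq2, and 1 passed an unadjusted p under 0.05 in limma.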

Additional observations from a re-analysis of the deposited data

How the results depend on the processing

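The count of cyp, sult, gst and ugt genes higher in EVL was 20 and stayed within 1.5 times of that under all 17 alternatives, from 14 when single libraries were left out to 30 with DESeq2 (27 of the 69 tested by limma and 3 below the minimum); no called gene changed direction. Adding 0.5 or 10 in place of 1, no filter, and a minimum of 50 gave 19, 19, 19 and 17. The count lower, 0 in limma, was 1 (gstm) with upper quartile scaling, DESeq2, library size alone or the total without the most-read gene, and 2 (cyp2r1 and gstm) with library size on the read scale, an alternative chosen after seeing the data. Over all genes the count lower, 108, was 54 with edgeR and TMM, 185 with upper quartile scaling, 214 with DESeq2, 1077 with library size alone, 1191 with library size on the read scale and 173 with the total without the most-read gene; without single libraries it ran from 14 to 77. With library size alone the median of all tested genes was -0.25, and -0.36 on the read scale, against -0.06 in the reported test, and the median of the enzymes was 0.45 and 0.75. The pathway lists gave 13 higher and 0 lower, 21 and 2 with DESeq2 (nr1i2 and esr2a among them below the minimum), 7 lower with either library size scaling, 1 lower with upper quartile scaling or no filter, and 0 to 1 lower without single libraries. The causes were not tested. Whether equal replicate numbers pair the libraries is not settled, and the reported test did not use them as pairs. Deviations from the group means correlated at 0.26, 0.33 and 0.075 for numbers 1, 2 and 3. Between different numbers they correlated from -0.27 to -0.02, so each library correlated best with its own number. With the replicate block, 22 of the enzyme genes were higher and 1 lower (cyp26a1, limma adjusted p = 0.0153). Over all genes 1573 were then higher and 279 lower, and 1 pathway gene was lower (pgrmc2, limma adjusted p = 0.0284). Depth limits the 62 genes with reads below the minimum, which limma did not test in the reported fit.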
